A study of Mus musculus with 18 samples.

Results

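The Wnt genes described here are the ligands, their receptors and co-receptors, the secreted antagonists and R-spondins, the factors that release ligands from the cell, and beta-catenin with its Axin scaffolds and TCF/LEF partners. They were chosen by gene symbol, and 53 of the 21959 genes in the deposited table matched. RNA was sequenced from MOVAS cells, a mouse aortic smooth muscle line immortalised with a viral T antigen, in 6 groups of 3 libraries. D_I cells had doxorubicin and isoliensinine, Dox cells had doxorubicin, H_I cells had hydrogen peroxide and isoliensinine, H2O2 cells had hydrogen peroxide, B_I cells had isoliensinine and Blank cells had none of these. Doxorubicin is an anthracycline that damages DNA, hydrogen peroxide is an oxidant, and the series' text says that both were used to make the cells senescent. Isoliensinine is an alkaloid of lotus seed embryos. The inducer in each isoliensinine group was read from the sample titles, neither doses nor times are stated there, and all groups are of this 1 line.

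Wnt ligands are lipid-modified proteins that porcupine acylates and Wntless carries to the cell surface. There they bind a Frizzled receptor together with Lrp5 or Lrp6, which stops a complex built on Axin from destroying beta-catenin. Beta-catenin then enters the nucleus and switches TCF/LEF factors from repression to activation of target genes, among them Axin2. Secreted frizzled-related proteins and Dickkopf proteins hold the pathway back outside the cell, while R-spondins strengthen it. In the arterial wall the pathway is known for its part in smooth muscle growth and survival.

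Of the 53 genes, 21 averaged at least 1 FPKM (fragments scaled by gene length and library total) over the 18 libraries, and 34 had enough reads to be tested. Those at 1 FPKM or more were 4 of 19 ligands, 8 of 12 receptors and co-receptors, 2 of 9 antagonists, 1 of 4 R-spondins, both secretion factors, 2 of the 3 beta-catenin and Axin genes and 2 of the 4 TCF/LEF genes. The 19 untested genes reached at most 17 reads in any library, and Dkk1 had 0 reads in every library. The ligand genes Wnt1, Wnt3, Wnt3a, Wnt9a, Wnt9b, Wnt6, Wnt10a and Wnt10b lie in 4 neighbouring pairs, in which at most 1 member of each pair reached 1 FPKM. Wnt6 (chromosome 1, 74811051 to 74824481) averaged 8.12 FPKM and Wnt10a, which starts 6193 bases after its end, averaged 0.0171 FPKM. Wnt9a (chromosome 11, 59197754 to 59224378) averaged 1.77 FPKM, and its neighbour Wnt3a, on the opposite strand at a gap of 16175 bases, averaged 0.00624 FPKM. Coordinates are those of the deposited table, for which no genome build is named in the files or labels.

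Wnt6 and Wnt9a moved in opposite directions under doxorubicin, and Sfrp2 was the most abundant antagonist and fell with Wnt6, so the bases just before the annotated start of each are shown. They are from RefSeq on GRCm38.p6, all on the plus strand: Wnt6 at chr1:74771642-74771891, Wnt9a at chr11:59306680-59306929 and Sfrp2 at chr3:83766071-83766320.
Wnt6: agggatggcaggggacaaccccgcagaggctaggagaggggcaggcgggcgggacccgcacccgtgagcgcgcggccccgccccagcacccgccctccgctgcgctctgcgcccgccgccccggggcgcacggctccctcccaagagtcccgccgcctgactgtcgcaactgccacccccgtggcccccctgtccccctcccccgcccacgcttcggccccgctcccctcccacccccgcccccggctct
Wnt9a: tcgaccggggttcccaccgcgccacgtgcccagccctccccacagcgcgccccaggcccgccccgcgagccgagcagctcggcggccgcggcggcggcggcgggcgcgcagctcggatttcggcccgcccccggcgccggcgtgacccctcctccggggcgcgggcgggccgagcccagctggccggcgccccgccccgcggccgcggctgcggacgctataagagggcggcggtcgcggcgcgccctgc
Sfrp2: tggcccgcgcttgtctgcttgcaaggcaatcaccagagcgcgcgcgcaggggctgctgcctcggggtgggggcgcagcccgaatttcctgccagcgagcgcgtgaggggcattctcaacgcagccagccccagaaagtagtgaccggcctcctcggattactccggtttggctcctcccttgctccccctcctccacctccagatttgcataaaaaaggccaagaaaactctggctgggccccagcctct
Both strands of the RefSeq promoter windows, which also hold a stretch after the start, were searched for the TCF/LEF words, which are the word CTTTGAA, the word CTTTGAT, the word CTTTGTA and the word CTTTGTT, to be marked in capitals. None of the 10 windows found for 8 of the 11 genes called between Dox and Blank held a word, and 16.9% of all 32851 windows of that length in the table did. The printed promoters are rich in G and C, which made up 76.7% of the Wnt6 window, 83.3% of the Wnt9a window and 66.0% of the Sfrp2 window, against a median of 52.7% over all windows. The search says nothing of sites outside these windows.

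Libraries held 12859609 to 23284077 counted reads, with 20140802 to 23284077 in Dox and at most 17955971 elsewhere. Blank library 4 and B_I library 3 stood apart from their groups on the first principal component (-69.71 and -61.32, against at least -36.23 in the other 16), as H_I library 1 did on the second (-55.96). Of 11 smooth muscle markers, 9 averaged at least 1 CPM (reads scaled to a common library total). Acta2 reached 806 to 4514 CPM, highest in Blank library 4 and B_I library 3. Tagln stayed at or below 0.81 CPM and Myocd at or below 0.71 CPM. The 11 together gave 2550 to 2930 CPM in Dox and 1560 to 5710 CPM in Blank. Of the 9 tested, 2 were called higher and 0 lower in Dox than in Blank (22.2%, beside 21.7% of all genes). Summed levels of 7 fibroblast markers were 1910 to 2040 CPM in Dox and 4920 to 6060 CPM in Blank, nearly all of it Col1a1. The list as a whole did not follow that sum: its 6 tested genes had a median log2 fold change of -0.06. Of these 6, 2 were called lower and 0 higher (33.3%, beside 21.7% of all genes). Summed levels of 5 macrophage markers were 17.2 to 26.3 CPM in Dox and 3.53 to 11.6 CPM in Blank, through Cd68 (13.3 to 23.2 CPM in Dox, 0.98 to 5.98 CPM in Blank), while Itgam and Adgre1 were at or below 0.445 CPM in both groups. A list of 13 intestinal epithelium markers summed to 809 CPM in H_I library 1 and to 49.8 to 285 CPM outside H_I. For 5 hepatocyte markers the sums were 297.5 CPM in H_I library 1 and 31.9 to 92.5 CPM outside H_I. The part of these differences in the Wnt results was not tested, and in bulk RNA fewer cells of a type cannot be told apart from less RNA per cell.

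The comparison of Dox with Blank asks which genes differed after doxorubicin alone. Here and below, levels within a gene are TMM-scaled CPM (library sizes corrected by a trimmed mean of log ratios), and called means an adjusted p (Benjamini-Hochberg) under 0.05 in edgeR's quasi-likelihood test over all 13375 genes tested. Of the 34 Wnt genes tested, 11 were called (32.4%), 2 higher and 9 lower in Dox. Over all genes 21.7% were called, 10.3% higher and 11.4% lower. The median log2 fold change was -0.09 over the 34 and 0.08 over all genes. Dox and Blank libraries did not overlap in level for 19 of the 34, and for 36.1% of all genes. With another scaling in edgeR the split of called Wnt genes was 2 higher and 10 lower (DESeq2's size factors) or 2 and 9 (upper quartile). Over all genes, 1197 of 2881 and 1476 of 3010 called genes were then higher. In limma on the deposited FPKM, which differs from edgeR in test, filter and scaling at once, it was 5 higher and 7 lower of 22 tested, with 2625 of 3675 called genes higher, where edgeR had 1372 of 2896. The higher genes were the ligand Wnt9a and beta-catenin, and the lower ones were the ligands Wnt6 and Wnt4, the antagonists Sfrp2 and Sfrp4, the R-spondin Rspo3, the receptors Fzd1 and Fzd2 and the nuclear factors Tcf7l1 and Tcf7. The calls of Wnt6, Wnt9a, Sfrp2, Fzd1, Fzd2, Ctnnb1 and Tcf7l1 held under all 18 alternative settings.

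Wnt6, a ligand known from epithelial and somite development, showed the largest fold of the ligands. It had 4.33, 4.76 and 4.62 CPM in Dox libraries 1 to 3, against 25.8, 24.6 and 31.0 CPM in Blank libraries 1, 2 and 4. The Dox libraries lay close together and far below every Blank library, on 98 to 107 reads in Dox and 399 to 415 reads in Blank. The log2 fold change was -2.57 (SE 0.22, 95% interval -3.03 to -2.11, adjusted p = 5.565e-08 in edgeR), or 0.168 of the Blank level. Wnt9a, a ligand known from joint formation, went the other way, with 9.10, 10.1 and 13.0 CPM in Dox and 1.62, 2.095 and 5.41 CPM in Blank. All Dox libraries were above all Blank libraries, and Blank library 4 was the highest of its group. The log2 fold change of Wnt9a was 1.83 (SE 0.39, 95% interval 1.01 to 2.65, adjusted p = 0.001832 in edgeR), or 3.57 times the Blank level, on 208 to 288 reads in Dox and 26 to 72 reads in Blank.

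Wnt4, a ligand known from kidney and ovary development, had the highest mean FPKM of the ligands. It measured 26.8, 28.5 and 26.7 CPM in Dox and 38.7, 31.6 and 59.4 CPM in Blank, so the groups did not overlap but Blank library 2 came near the Dox range. Its log2 fold change of -0.66 (adjusted p = 0.01422 in edgeR) was -0.39 without Blank library 4 (adjusted p = 0.103), and the call was also lost without Dox library 1 (adjusted p = 0.0524) or Dox library 3 (adjusted p = 0.056). Wnt5b, the remaining ligand at 1 FPKM or more, was not called (log2 fold change -0.86, adjusted p = 0.1087). The 4 tested ligands below 1 FPKM, Wnt1, Wnt5a, Wnt7b and Wnt11, were not called either, and none of them exceeded 3.69 CPM in any library.

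Summed over the 19 ligands, expression was 14.1 to 15.7 FPKM in Dox and 20.4 to 27.0 FPKM in Blank. Within that sum the makeup differed. Wnt6 gave 14.4% to 15.5% of it in Dox and 44.4% to 54.0% in Blank, and Wnt9a gave 20.5% to 26.9% in Dox and 1.97% to 5.09% in Blank. Wnt4 held 43.7% to 48.8% in Dox and 36.3% to 44.4% in Blank. Wnt9a thus passed Wnt6 per gene length in every Dox library and in no Blank library. FPKM sums, here and below, are scaled by library total without the TMM factors, which were 1.02 to 1.07 in Dox and 0.846 to 0.981 in Blank. Dividing by these factors would lower the Dox sums and raise the Blank sums. Shares within a library would not change.

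**Figure D1:**
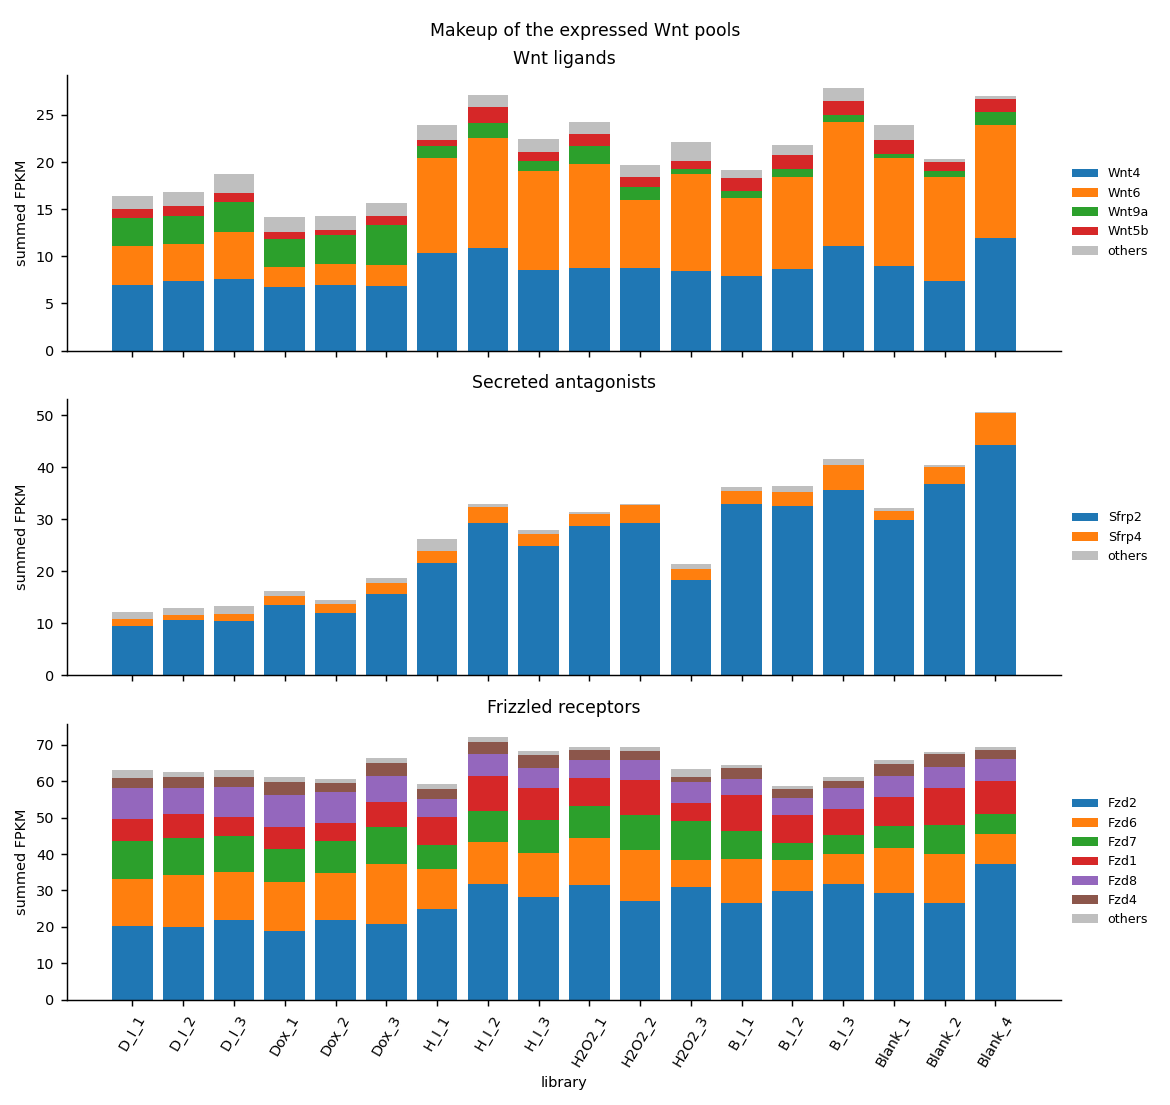
Stacked bars of the authors' FPKM per library, summed over all ligands (top), antagonists (middle) and Frizzled receptors (bottom), with libraries of D_I, Dox, H_I, H2O2, B_I and Blank along the x axis. The Wnt6 segment is smallest in the Dox libraries (14.4% to 15.5% of the ligand sum) while Wnt9a holds 20.5% to 26.9% of it there and 1.97% to 5.09% in Blank.

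Sfrp2, a secreted frizzled-related protein that binds Wnt proteins outside the cell, supplied 82.0% to 84.1% of antagonist FPKM in Dox and 87.5% to 92.7% in Blank. It had 27.6, 24.99 and 31.5 CPM in Dox and 66.1, 80.8 and 112.6 CPM in Blank. Every Dox library was below every Blank library, with a log2 fold change of -1.63 (SE 0.18, 95% interval -2.01 to -1.25, adjusted p = 1.98e-06 in edgeR). Its relative Sfrp4 had 6.31, 7.33 and 7.92 CPM in Dox and 7.60, 13.6 and 31.0 CPM in Blank. The groups overlapped, since Blank library 1 was below Dox library 3, and Blank library 4 was more than all others. The log2 fold change of Sfrp4 was -1.27 (adjusted p = 0.01802 in edgeR) with all libraries, -0.59 without Blank library 4 (adjusted p = 0.219) and -1.18 without Dox library 1 (adjusted p = 0.0758). The antagonist sum was 14.5 to 18.7 FPKM in Dox and 32.2 to 50.5 FPKM in Blank.

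Among the antagonists below 1 FPKM, Sfrp1 measured 1.82, 1.55 and 1.68 CPM in Dox and 0.31, 1.11 and 0.38 CPM in Blank, without a call (log2 fold change 1.47, adjusted p = 0.1366), and Dkk3 was not called. Rspo3, an R-spondin that raises Wnt signalling through Lgr receptors, had 2.99, 2.72 and 3.40 CPM in Dox and 5.73, 5.85 and 7.06 CPM in Blank. The groups were separate, and the log2 fold change was -1.03 (adjusted p = 0.02618 in edgeR). With 56 to 75 reads in Dox and 92 to 95 in Blank, the Rspo3 call was lost when Dox library 1, 2 or 3 or Blank library 4 was left out (adjusted p = 0.081, 0.0852, 0.0587 and 0.0724).

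Receptors split by gene. Fzd2, the most abundant of them, had 64.9, 78.0 and 71.1 CPM in Dox and 110.2, 99.4 and 161.2 CPM in Blank, a log2 fold change of -0.79 (SE 0.15, adjusted p = 0.0007271 in edgeR). Fzd1 had 23.5, 20.04 and 26.03 CPM in Dox and 34.1, 43.7 and 45.1 CPM in Blank, a log2 fold change of -0.82 (SE 0.18, adjusted p = 0.002127 in edgeR). Neither receptor overlapped between the groups. Fzd3, Fzd4, Fzd5, Fzd6, Fzd7, Fzd8, Fzd9 and the co-receptors Lrp5 and Lrp6 were not called, and for Fzd7 the log2 fold change was 0.37 (95% interval 0.03 to 0.71, adjusted p = 0.1212). The Frizzled sum was 60.7 to 66.4 FPKM in Dox and 65.9 to 69.2 FPKM in Blank, and Fzd2 gave 30.8% to 35.9% of it in Dox and 39.1% to 53.8% in Blank. The overlap of these sums depends on the scale, since the TMM factors would lower those of Dox and raise those of Blank.

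The secretion factors were not called. Wls, which carries Wnt proteins to the surface, had 233.0, 230.8 and 272.0 CPM in Dox and 292.3, 339.1 and 274.9 CPM in Blank. All Dox libraries were lower, by little, and the log2 fold change of -0.30 (95% interval -0.54 to -0.07) had an adjusted p of 0.06218 in edgeR, which became 0.0182 without Blank library 4. With all libraries it was 0.0293 in edgeR with DESeq2's size factors, 0.0386 in edgeR with a filter of 5 CPM in 3 libraries and 0.0147 in DESeq2. Wls stayed uncalled in 11 of 18 alternatives. Porcn, the porcupine acyltransferase, had a log2 fold change of -0.70 (adjusted p = 0.1645).

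Ctnnb1, which codes for beta-catenin, had 146.3, 147.2 and 170.8 CPM in Dox and 103.1, 109.3 and 111.3 CPM in Blank. The groups were separate and the log2 fold change was 0.52 (SE 0.11, 95% interval 0.29 to 0.76, adjusted p = 0.001958 in edgeR). Axin1, the most abundant of the 53 genes in FPKM and a scaffold of the complex that destroys beta-catenin, had 152.9, 162.7 and 145.6 CPM in Dox and 141.5, 133.9 and 176.3 CPM in Blank. These ranges overlapped, and the log2 fold change was 0.03 (95% interval -0.20 to 0.26). Axin2, a target of the pathway that feeds back on it, had 2.75, 1.70 and 3.08 CPM in Dox and 1.56, 1.85 and 1.35 CPM in Blank, with a log2 fold change of 0.66 (95% interval -0.57 to 1.88, adjusted p = 0.4905). On 18 to 68 reads a library in these groups, neither no change nor a doubling of Axin2 lay outside that interval. In other groups Axin2 was uneven, at 5.98 CPM in H_I library 2 and 5.65 CPM in B_I library 1, against 1.03 and 1.48 CPM in B_I libraries 2 and 3.

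Tcf7l1, a TCF factor that mainly represses targets, had 36.8, 35.1 and 30.4 CPM in Dox and 56.7, 56.4 and 78.4 CPM in Blank. All Dox libraries were lower, with a log2 fold change of -0.90 (SE 0.16, adjusted p = 0.0002774 in edgeR). Tcf7, first known from T cells, had 12.1, 9.95 and 10.3 CPM in Dox and 18.6, 17.0 and 16.6 CPM in Blank. The groups were separate, and the log2 fold change was -0.69 (adjusted p = 0.018 in edgeR), a call that was lost without Dox library 2, Dox library 3 or Blank library 1 (adjusted p = 0.0681, 0.0755 and 0.0649). Tcf7l2 and Lef1 were not called, Tcf7l2 with a log2 fold change of -0.62 (adjusted p = 0.08305).

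**Figure D2:**
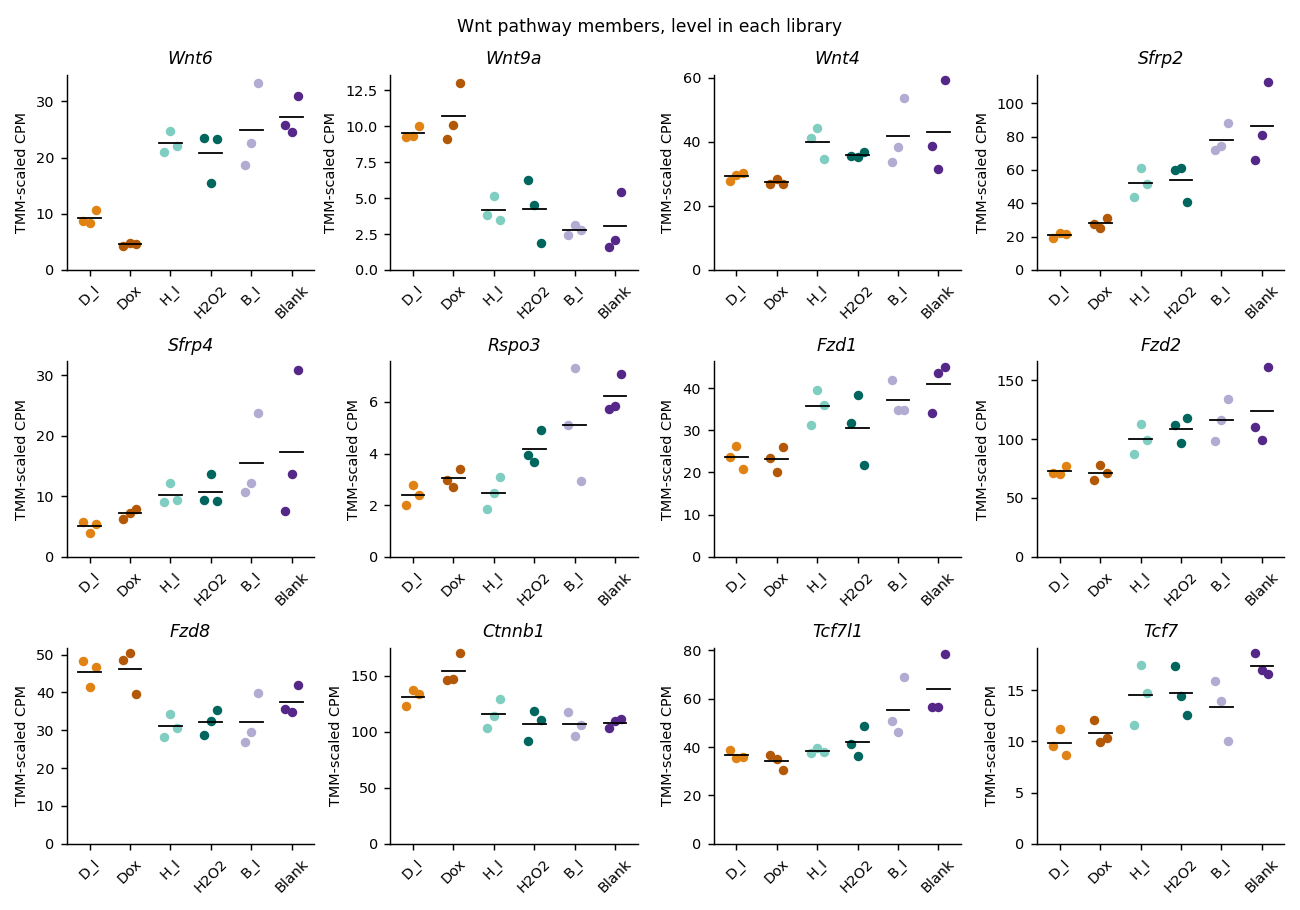
TMM-scaled CPM of 12 Wnt genes in each library (points) with the mean of each group (line), groups in the order D_I, Dox, H_I, H2O2, B_I and Blank on the x axis, each panel with its own y axis from 0. Wnt6 lies between 4.33 and 4.76 CPM in Dox and at or above 24.6 CPM in Blank, and Wnt9a lies at or above 9.10 CPM in Dox and at or below 5.41 CPM in Blank.

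The doxorubicin comparison could be made again in cells that all had isoliensinine, D_I against B_I, which shares no library with Dox against Blank. There too 11 of 34 Wnt genes were called, 3 higher and 8 lower, against 18.8% of all genes, 9.41% higher and 9.41% lower. Of the 11 genes called in each comparison, 8 were called the same way in both (72.7% of each), and none in opposite directions. They were Wnt6, Wnt9a, Sfrp2, Sfrp4, Rspo3, Fzd1, Fzd2 and Tcf7l1. Over all genes, 61.3% of those called in Dox against Blank, and 70.5% of those called in D_I against B_I, were called the same way in the other comparison. In limma on the deposited FPKM, 6 Wnt genes were higher and 7 lower between D_I and B_I, with 2333 of 3209 called genes higher, where edgeR had 1259 of 2518. The sign was shared for 28 of the 34 Wnt genes, and for 77.9% of all genes. D_I and B_I libraries did not overlap in level for 18 of the 34, and for 38.1% of all genes.

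Wnt6 had 8.72, 8.39 and 10.7 CPM in D_I and 18.6, 22.7 and 33.3 CPM in B_I, a log2 fold change of -1.42 (SE 0.21, adjusted p = 5.918e-05 in edgeR). Wnt9a had 9.28, 9.35 and 10.1 CPM in D_I and 2.44, 3.16 and 2.76 CPM in B_I, a log2 fold change of 1.78 (SE 0.40, adjusted p = 0.002974 in edgeR). Neither ligand overlapped between the groups. Sfrp2 fell to 19.4, 22.02 and 21.4 CPM in D_I, against 71.9, 74.2 and 88.2 CPM in B_I (log2 fold change -1.90, adjusted p = 4.901e-07). Sfrp4 had 5.79, 3.93 and 5.40 CPM in D_I and 10.7, 12.2 and 23.8 CPM in B_I (log2 fold change -1.62, adjusted p = 0.00503). Both antagonists were separate between these groups, and the antagonist sum was 12.2 to 13.2 FPKM in D_I and 36.2 to 41.5 FPKM in B_I.

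Of the other called genes, Fzd2 (log2 fold change -0.67), Fzd1 (-0.66), Tcf7l1 (-0.59) and Rspo3 (-1.10) were lower in D_I. Porcn had 2.86, 2.50 and 1.42 CPM in D_I and 4.36, 5.87 and 5.46 CPM in B_I, a log2 fold change of -1.21 (adjusted p = 0.01827 in edgeR). Fzd7 had 45.6, 43.9 and 43.2 CPM in D_I and 35.4, 22.1 and 26.6 CPM in B_I, a log2 fold change of 0.66 (adjusted p = 0.00778 in edgeR). Fzd8 had 48.3, 41.5 and 46.6 CPM in D_I and 26.9, 29.6 and 39.9 CPM in B_I, a log2 fold change of 0.50 (adjusted p = 0.02327 in edgeR). None of the 3 overlapped between the groups. Several of these calls were lost when a library was left out: Rspo3 without B_I library 2 (log2 fold change -0.78, adjusted p = 0.156), D_I library 1 (adjusted p = 0.109) or D_I library 3 (adjusted p = 0.0688), and Tcf7l1 without B_I library 3 (adjusted p = 0.0608). Fzd1 was lost without D_I library 3 (adjusted p = 0.0707) or B_I library 1 (adjusted p = 0.0529), Fzd7 without B_I library 2 (adjusted p = 0.0684), and Porcn without D_I library 3 (adjusted p = 0.1) or B_I library 2 (adjusted p = 0.063). Fzd8 was lost without D_I library 1 or 3 or B_I library 1 or 2 (adjusted p = 0.0939, 0.0689, 0.101 and 0.108). The count of called Wnt genes was 7 without D_I library 3 or without B_I library 2, where 1863 and 1820 of all genes were called. Ctnnb1 was not called here (log2 fold change 0.30, adjusted p = 0.07044), and neither were Wnt4 (log2 fold change -0.51, adjusted p = 0.06144) and Tcf7 (log2 fold change -0.44, adjusted p = 0.1484). Ctnnb1 and Wnt4 were called without B_I library 1 (adjusted p = 0.0407 and 0.0265), and Tcf7 without B_I library 3 (adjusted p = 0.0497). With all libraries, Ctnnb1 was also called in limma (adjusted p = 0.00639 and 0.00657) and with a replicate block in edgeR (0.0476). Wnt4 was then called in DESeq2 (adjusted p = 0.0302) and in edgeR with DESeq2's size factors (0.0464) or upper-quartile scaling (0.0431). Ctnnb1 stayed uncalled in 14 and Wnt4 in 10 of 18 alternatives.

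**Figure D3:**
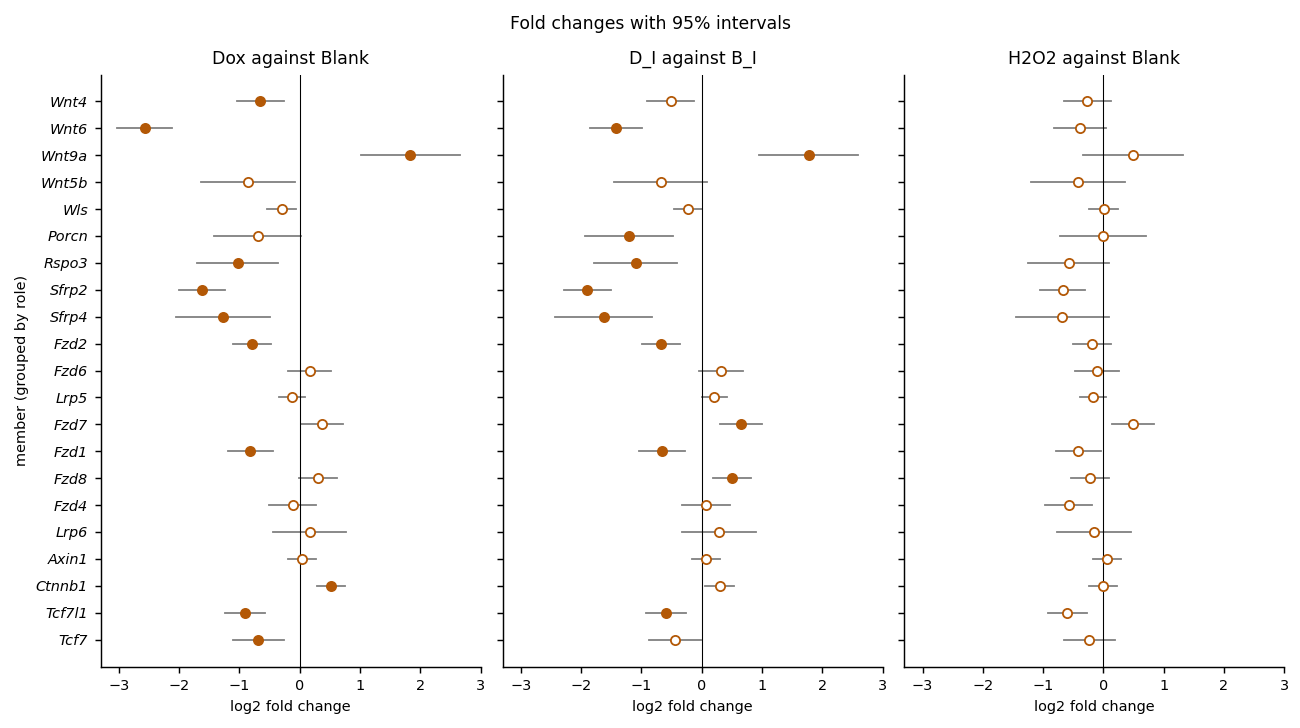
Log2 fold change (point) with its 95% interval (line) of the 21 Wnt genes averaging at least 1 FPKM, grouped by role, in Dox against Blank (left), D_I against B_I (middle) and H2O2 against Blank (right), with filled points for genes called at an adjusted p under 0.05. Wnt6 lies at -2.57 and -1.42 and Wnt9a at 1.83 and 1.78 in the doxorubicin comparisons, and no point is filled for hydrogen peroxide.

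Isoliensinine itself gave no call among the Wnt genes, whether added to doxorubicin, to hydrogen peroxide or alone, and 0 of all 13375 genes passed in each of these 3 comparisons (0% called). At an unadjusted p under 0.05, edgeR gave 3 Wnt genes for isoliensinine on doxorubicin, 4 on hydrogen peroxide and 1 alone. The share of all genes at that unadjusted p was not counted, here or below. DESeq2 and limma called 0 Wnt genes in each comparison. Over all genes DESeq2 called 21, 81 and 1 in these comparisons, and limma called 1, 0 and 0. For D_I against Dox, edgeR called 263 genes in a fit to these groups alone, 21 without Blank library 4 and B_I library 3, and 184 without those and H2O2 library 3 and H_I library 1. Among the Wnt genes alone, the lowest unadjusted p in these edgeR comparisons was that of Wnt6, in D_I against Dox. It had 8.72, 8.39 and 10.7 CPM in D_I, against 4.33, 4.76 and 4.62 CPM in Dox, with every D_I library above every Dox library and below every Blank library. The log2 fold change was 1.02 (SE 0.22, 95% interval 0.57 to 1.47), with an unadjusted p of 0.0001238 and an adjusted p of 0.3409 in edgeR. In a fit to these groups alone the adjusted p was 0.0206, without Blank library 4 and B_I library 3 it was 0.0174, and without those and H2O2 library 3 and H_I library 1 it was 0.00332. Wnt9a differed by less, at 9.28, 9.35 and 10.1 CPM in D_I and 9.10, 10.1 and 13.0 CPM in Dox (log2 fold change -0.17, 95% interval -0.94 to 0.60). Sfrp2 lay further from Blank in D_I, at 19.4, 22.02 and 21.4 CPM against 27.6, 24.99 and 31.5 CPM in Dox. Its log2 fold change was -0.42 (unadjusted p = 0.03353, adjusted p = 0.9995 in edgeR). Without the 4 libraries named above Sfrp2 was called (adjusted p = 0.0481). Ctnnb1 lay toward Blank, by -0.24 (unadjusted p = 0.04774 in edgeR). D_I and Dox were separate for 10 of the 34 Wnt genes and for 18.8% of all genes.

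The difference between the doxorubicin effects with and without isoliensinine was tested as an interaction. For Wnt6 it was 1.15 on the log2 scale (95% interval 0.53 to 1.76), with an unadjusted p of 0.000884 and an adjusted p of 0.8121 in edgeR, and for Wnt9a it was -0.06 (95% interval -1.2 to 1.09). No Wnt gene and no other gene passed in this interaction or in that for hydrogen peroxide (0% called). At an unadjusted p under 0.05 there were 3 and 2 Wnt genes in them, and DESeq2 and limma called 0 Wnt genes in both. Over all genes DESeq2 called 3 and 2, and limma 0 and 1. Without Blank library 4, B_I library 3, H2O2 library 3 and H_I library 1, the adjusted p of the Wnt6 interaction was 0.0189.

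Hydrogen peroxide alone, H2O2 against Blank, gave no Wnt call in edgeR, against 1.43% of all genes. DESeq2 called Tcf7l1 and Sfrp2, among 428 of all 13375 genes. In edgeR 5 of the 34 Wnt genes had an unadjusted p under 0.05. Sfrp2 had 59.9, 61.0 and 40.8 CPM in H2O2 and 66.1, 80.8 and 112.6 CPM in Blank, a log2 fold change of -0.68 (95% interval -1.05 to -0.31, adjusted p = 0.05934 in edgeR). Tcf7l1 had 41.2, 36.4 and 48.9 CPM in H2O2 and 56.7, 56.4 and 78.4 CPM in Blank, a log2 fold change of -0.60 (95% interval -0.93 to -0.27, adjusted p = 0.05934 in edgeR). Both genes were lower in each H2O2 library than in each Blank library. These groups were separate for 7 of the 34 Wnt genes tested and for 13.7% of all genes. Tcf7l1 was called without H2O2 library 3 (adjusted p = 0.0406) and Sfrp2 without Blank library 1 (adjusted p = 0.0328). Wnt6 and Wnt9a were not called here. Wnt6 had 23.4, 15.4 and 23.4 CPM in H2O2 (log2 fold change -0.39, 95% interval -0.81 to 0.03), and Wnt9a had 6.28, 4.53 and 1.86 CPM (log2 fold change 0.49, 95% interval -0.34 to 1.33). With 1 library left out, that Wnt9a value lay between 0.10 (without H2O2 library 1) and 1.2 (without Blank library 4), with no call. Without Blank library 4, B_I library 3, H2O2 library 3 and H_I library 1 together it was 1.55 and Wnt9a was called (adjusted p = 0.003735).

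With isoliensinine present, H_I against B_I likewise gave no Wnt call in edgeR, against 1.46% of all genes. At an unadjusted p under 0.05 there were 4 Wnt genes of 34. DESeq2 called 2 Wnt genes, among 530 of all 13375 genes, and limma called 0. Wnt6 had 20.95, 24.7 and 22.1 CPM in H_I and 18.6, 22.7 and 33.3 CPM in B_I, and Sfrp2 had 44.0, 61.2 and 51.5 CPM in H_I and 71.9, 74.2 and 88.2 CPM in B_I. The Wnt6 ranges overlapped and the Sfrp2 ranges did not. H_I and B_I were separate for 3 of the 34 Wnt genes tested and for 23.2% of all genes.

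Set against each other, Dox and H2O2 differed in 6 of 34 Wnt genes, 3 higher and 3 lower in Dox, against 13.1% of all genes, 6.73% higher and 6.33% lower. With DESeq2's size factors the split was 2 Wnt genes higher and 4 lower, and 674 of 1710 called genes were higher, where the TMM scaling had 900 of 1746. This comparison uses the same Dox libraries as Dox against Blank and is no separate evidence on them. Wnt6 (log2 fold change -2.18, SE 0.22, adjusted p = 3.63e-06 in edgeR), Sfrp2 (-0.95, adjusted p = 0.001321) and Fzd2 (-0.61, adjusted p = 0.01105) were lower. Wnt9a (1.34, adjusted p = 0.02423), Ctnnb1 (0.53, adjusted p = 0.003062) and Fzd8 (0.52, adjusted p = 0.02505) were higher. Fzd2 had 111.9, 96.4 and 117.8 CPM in H2O2 and Ctnnb1 had 92.2, 118.5 and 110.4 CPM there. Fzd8, a Frizzled receptor, had 48.5, 50.5 and 39.6 CPM in Dox and 28.8, 32.4 and 35.3 CPM in H2O2, and 35.7, 34.8 and 42.0 CPM in Blank. All 6 genes were separate between Dox and H2O2, as were 11 of the 34 Wnt genes tested and 32.6% of all genes. The Wnt9a call was lost without Dox library 3 (adjusted p = 0.118) or H2O2 library 3 (adjusted p = 0.115), that of Fzd2 without Dox library 1 (adjusted p = 0.0681) or H2O2 library 3 (adjusted p = 0.0531), and that of Fzd8 without Dox library 1 or 2 or H2O2 library 1 (adjusted p = 0.091, 0.0875 and 0.0973).

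The other genes of the pathway were taken from lists by role. Between Dox and Blank, 5 of 22 tested cytoplasmic genes (22.7%), 4 of 19 nuclear genes (21.1%), 4 of 20 surface genes (20%), 10 of 34 genes of the branches that bypass beta-catenin (29.4%) and 8 of 32 reported beta-catenin targets (25%) were called, beside 21.7% of all genes. Of the targets 7 were higher and 1 lower, with a median log2 fold change of 0.41 against 0.08 over all genes. Ccnd1, cyclin D1 of the cell cycle, had 113.1, 112.5 and 111.2 CPM in Dox and 31.0, 31.7 and 18.9 CPM in Blank, with no overlap and a log2 fold change of 2.04 (adjusted p = 2.171e-06 in edgeR). Fgf18, a growth factor (log2 fold change 2.18, adjusted p = 0.003835), and Plaur, the urokinase receptor (1.18, adjusted p = 0.0003055), were also higher. Sox9 was lower (-1.02, adjusted p = 0.02307), a call that was lost without Dox library 2, Dox library 3 or Blank library 1 (adjusted p = 0.113, 0.0549 and 0.104). These genes are known to answer to other pathways as well, and which pathway acted here was not tested. Axin2, 1 of the 53 Wnt genes and so not in this list, was not called. As given above, its interval held both no change and a doubling.

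All 4 nuclear genes called were lower in Dox. Tle2 (log2 fold change -1.28) and Tle5 (-0.71) belong to the Groucho family of TCF corepressors and their relatives, Ctbp2 (-0.54) is a corepressor, and Pygo2 (-0.38) is a coactivator that works with Bcl9. The Tle2 call was lost without Dox library 1 (adjusted p = 0.0521), that of Ctbp2 without Dox library 3 (adjusted p = 0.0797), and that of Pygo2 in 9 of 18 alternatives. The 4 surface genes called were lower as well: Trabd2b (-1.06), a protease that cleaves Wnt proteins, the glypican Gpc6 (-0.89), the adhesion receptor Adgra2 (-0.46) and Tmem59 (-0.46). Only Tmem59 of these kept its call without Blank library 4, and Trabd2b then had a log2 fold change of -0.64 (adjusted p = 0.0659).

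Ror1, a receptor tyrosine kinase for Wnt5a, had 5.26, 2.04 and 5.07 CPM in Dox and 17.6, 15.0 and 14.4 CPM in Blank, without overlap and with a log2 fold change of -1.92 (adjusted p = 0.0003159 in edgeR). Fuz, a planar polarity effector needed for cilia, was lower too (-1.23, adjusted p = 0.003198). Daam1, a formin that binds Dishevelled (1.05, adjusted p = 0.01384), and Invs, inversin (0.83, adjusted p = 0.005716), were higher, the Daam1 call being lost without Blank library 4 (adjusted p = 0.0826) or Dox library 1 (adjusted p = 0.0758). The higher calls of this list numbered 6 with all libraries and 1 without Blank library 4 and B_I library 3, and the lower calls numbered 4 with all libraries and 5 without them. In the cytoplasm, Csnk1a1, the casein kinase that primes beta-catenin for destruction (0.72), and Fbxw11, a ubiquitin ligase subunit that recognises it (0.48), were higher, while the Lrp6 kinase Csnk1g2 (-0.54) and Dvl2, a Dishevelled protein (-0.51), were lower. Without Blank library 4 or Dox library 3 the Csnk1a1 call was lost (adjusted p = 0.0897 and 0.0687).

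Between D_I and B_I, where 18.8% of all genes were called, the lists gave 7 of 22 cytoplasmic genes (31.8%), 2 of 19 nuclear genes (10.5%), 1 of 20 surface genes (5%), 7 of 34 genes of the other branches (20.6%) and 7 of 32 targets (21.9%). The called targets were all higher, among them Ccnd1 (log2 fold change 1.55), Fosl1 (1.40), Jun (1.18) and Plaur (0.66), the Fosl1 call being lost without B_I library 3 (adjusted p = 0.0605) and that of Plaur without any other library of these groups (adjusted p = 0.0676 to 0.0795). Ror1 (-1.54), Fuz (-1.33) and Trabd2b (-1.44) were lower. Between H2O2 and Blank, where 1.43% of all genes were called, 2 of 32 targets, 1 of 20 surface genes and 0 genes of the other 3 lists were called. They were Ccnd1 (1.26) and Plaur (1.16), both higher, and Tmem59 (-0.44), lower. In a fit to these groups alone the adjusted p was 0.194 for Ccnd1, 0.326 for Plaur and 0.474 for Tmem59. In all, 0 genes of the 5 lists were called in the isoliensinine comparisons.

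**Figure D4:**
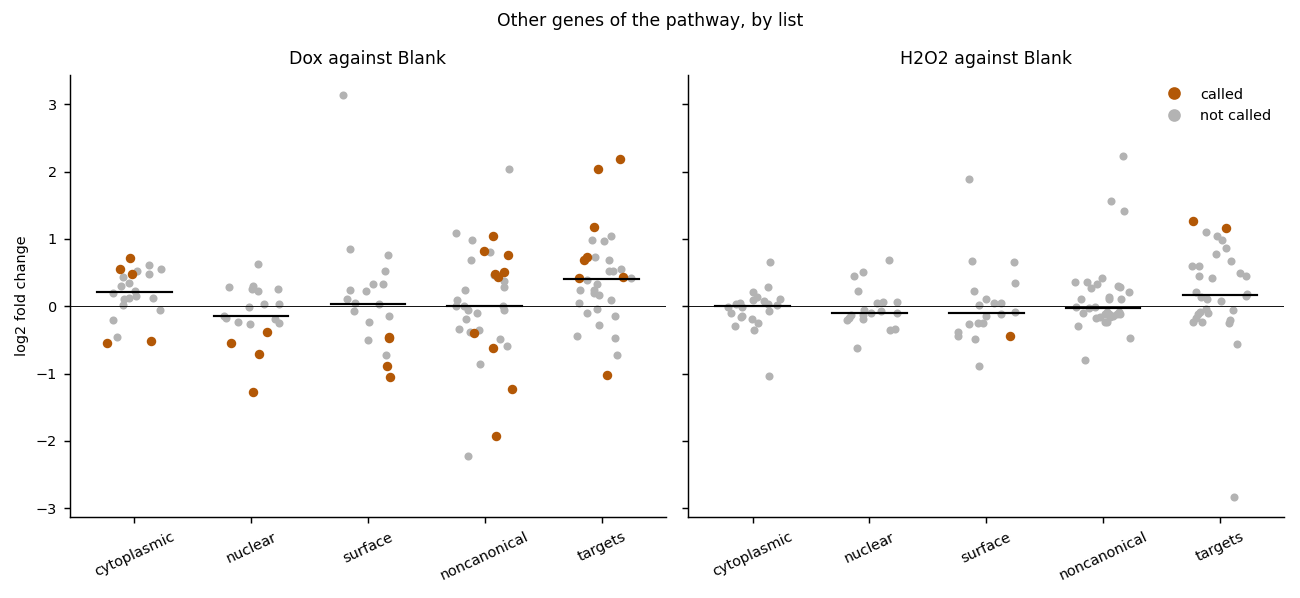
Log2 fold change of every tested gene (points) of 5 lists of other pathway genes, in Dox against Blank (left) and H2O2 against Blank (right), with orange points for called genes and a line at each list's median. The median of the target list is 0.41 in Dox against Blank, and its called genes are 7 above 0 and 1 below, while for H2O2 only Ccnd1, Plaur and Tmem59 are called.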

How the data were processed

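RNA-seq was made from 18 MOVAS libraries, 3 in each of 6 groups. The authors deposited 1 table with raw read counts per gene and FPKM per gene for each library, per the file headers. The deposited FPKM equal the count divided by gene length and library total in 100% of values, within a relative tolerance of 1e-06. The submitters' processing notes name fastp 0.22.0, HISAT2 2.1.0 and HTSeq 0.9.1; no genome build or use of strand is named there. Rows with no symbol (51, holding 0.0187% of counts) were kept under their gene identifiers, and could not match a Wnt symbol.

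Counts were scaled by TMM and tested with edgeR 4.0.16 (R 4.3.3) in 1 quasi-likelihood fit over all groups, after edgeR's own filter on low counts, which left 13375 genes. The 8 comparisons and 2 interactions were adjusted by Benjamini-Hochberg over all genes, and the procedure was tested on simulated data. Median standard errors of the log2 fold changes were 0.228 to 0.231 in the 8 comparisons, and 0.324 and 0.327 in the 2 interactions. Alternatives were DESeq2 1.42.0, limma 3.58.1 on log2(FPKM + 1) and log2(FPKM + 0.1), other scalings and filters, a replicate block, and leaving out libraries. The labels do not say that replicates came from separate cultures, so p-values measure the spread between these libraries. No pair of libraries agreed within counting error.

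The Wnt genes and the lists were chosen with earlier results of these data known. Per-library values were given for Wnt6, Wnt9a, other called genes and the most abundant gene of each role, and list genes were named by size of fold change, up to 4 a list. Promoters are RefSeq windows and were matched by symbol.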

Additional observations from a re-analysis of the deposited data

How the results depend on the processing

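The counts of called Wnt genes depended on the settings as follows, over 18 alternatives in most comparisons. Between Dox and Blank (11 called) the count was 7 at an adjusted p under 0.01 and 8 to 12 when 1 library was left out, 14 with DESeq2 and 13 without Blank library 4, B_I library 3, H2O2 library 3 and H_I library 1 together. Between D_I and B_I (11) it was 6 at 0.01 and 7 to 12 with 1 library left out and 14 without those 4 libraries, and between Dox and H2O2 (6) it was 3 at 0.01, 4 to 6 with 1 library left out, and 13 without the 4 libraries. Between H2O2 and Blank (0) it was 1 with no filter, 2 with DESeq2, 1 with limma at either pseudocount, 0 to 1 with 1 library left out and 2 without those 4 libraries. Between D_I and Dox (0) it was 1 in a fit to the groups compared, 1 without Blank library 4 and B_I library 3, and 2 without the 4 libraries. Between H_I and B_I (0) it was 2 with a replicate block, 2 with DESeq2 and 1 without Blank library 4 and B_I library 3. In the doxorubicin interaction (0) it was 1 without the 4 libraries, with 76 calls over all genes. Calls over all genes moved too, given next for the main fit, 0.01, DESeq2 and without the 4 libraries. They were 2896, 1722, 3286 and 3826 between Dox and Blank, and 2518, 1382, 2918 and 3655 between D_I and B_I. Between Dox and H2O2 they were 1746, 808, 2195 and 2525, and between H2O2 and Blank 191, 55, 428 and 689. For H_I against B_I they were 195 in the main fit, 616 with a replicate block and 530 with DESeq2. With 1 library left out, calls over all genes were 1876 to 2869 between Dox and Blank and 1615 to 2545 between D_I and B_I. They were then 845 to 1741 between Dox and H2O2 and 94 to 259 between H2O2 and Blank. For H2O2 against Blank, calls over all genes were 184 with no filter and 504 and 515 in limma. The Wnt9a interaction for doxorubicin, -0.06, became 0.10 without Dox library 3, 0.04 without B_I library 2, 0.25 without Blank library 1 and 0.15 without Blank library 2. Without 1 library it ranged between -0.75 and 0.25, and over all alternatives its lowest value was -0.82. The cause was not tested.

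Where 2 groups shared a library number, same-numbered libraries did not deviate together (correlations of -0.188 to 0.279), so the numbers were not taken as pairs. Blank library 4 has no same-numbered partner and was not in that check. It lay near B_I library 3 on the first principal component (-69.71 and -61.32), and whether these 2 share a batch was not tested. With a replicate block 8 Wnt genes were called between Dox and Blank, 13 between D_I and B_I and 6 between Dox and H2O2. Over all genes the same fit called 2428, 3120 and 2317 of 13375. Blank library 4 was alone in its block, since no other group has that number, so it in effect dropped out of contrasts with Blank. The 8 thus mixes the block with the loss of that library. With that library left out and no block, 10 Wnt genes and 2513 of 13782 genes were called between Dox and Blank. At this depth 19 of the 53 genes, 11 of them ligands, had at most 17 reads in any library and could not be compared.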
